A study of Sus scrofa with 6 samples.

Results

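The genes described here encode the heat-shock and DNAJ chaperones of pig muscle. They were chosen by symbol alone, as every Ensembl gene of the deposited table whose symbol begins with HSPA, HSPB, HSPD, HSPE, HSPH, HSP90 or DNAJ, with the values of all transcripts of a gene added up. The table held 62 such genes among 31908 Ensembl genes. A mean of 0.1 FPKM or more (fragments per kilobase of transcript, scaled to the mapped fragments of the library) over the 6 pigs was reached by 56 of them, and these were tested among 16333 genes. The study compared Laiwu pigs, a fatty breed of North China, that had extremely high (S-H) or extremely low (S-L) intramuscular fat (IMF) in the longissimus dorsi (LD), a long back muscle. The S-H pigs were LW63, LW70 and LW119 and the S-L pigs were LW82, LW88 and LW90. All 6 were castrated males, and each gave 1 library of total RNA that was depleted of ribosomal RNA and kept strand information. Each pig was 1 replicate, and the groups were picked from the extremes of a larger set of pigs.

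Chaperones bind proteins that are unfolded, newly made or damaged and help them to reach or keep their folded form. HSP70 proteins hold short stretches of a client in cycles driven by ATP, and the J-domain proteins of the DNAJ classes deliver the clients and start the cycle. HSP90 finishes the folding of selected clients, HSPD1 and HSPE1 form the folding chamber of the mitochondrion, and small heat-shock proteins hold unfolded proteins without ATP. In muscle several of them are bound to the contractile filaments, and many are induced together by heat shock factor 1 (HSF1) when proteins are damaged. The endoplasmic reticulum (ER) has chaperones of its own, which are induced by unfolded protein in that compartment.

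No member of the family passed at an adjusted p below 0.05, and no gene of the whole table did in limma with Benjamini-Hochberg adjustment. At the thresholds of the study (p below 0.01 before adjustment and a log2 fold change of 1 or more in either direction) limma called 1 of the 56 members (1.79%), DNAJB1, which was higher in S-H. The background at these thresholds was 1.25% of all tested genes (204 of 16333), with 0.931% higher and 0.318% lower in S-H, so the share of members was near it. With median-ratio size factors it was 1.13%, and 0 members were called. An unadjusted p below 0.05 was reached by 3 members, DNAJB1, HSPE1 and DNAJC10, or 5.36%, against a background of 7.45% (1217 genes). All 3 were higher in S-H. In 19 members (33.9%) the highest pig was more than 3 times the lowest, against 35.3% of all tested genes. LW119, an S-H pig, held the highest value of 26 of the 56 members (46.4%), against 29.4% of all tested genes, and LW88, an S-L pig, that of 8 members (14.3%, against 11.3%).

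The FPKM values carry no common scale between the libraries, and over all tested genes the log2 fold changes had a median of 0.19 rather than 0. The median of the 56 members was 0.23, which is 0.04 above that of all genes. The direction of a change is therefore given both as measured and relative to the median of all genes, and it is said where median-ratio size factors, which take out a common shift between libraries, turned it. Those size factors ran from 0.819 in LW90 to 1.16 in LW119. Summed FPKM per library ran from 638536 in LW119 to 846661 in LW82. FPKM values hold no counts, so the precision is that of the spread over the 3 pigs in each group. The study lists the reads of each library, which were not used in the fit. By its figures the mapped share of reads was highest in LW119 and lowest in LW88. The part of this in their values was not tested. A fold change on the log2(FPKM + 0.1) scale understates the change of genes with low values. Muscle was checked by its markers, of which 5 of 10 were found. Their summed level lay between 5600.2 and 9528 FPKM in S-H and between 5788 and 7513 FPKM in S-L. The highest were desmin (DES) and creatine kinase (CKM), with log2 fold changes of 0.81 and 0.21. Of the 5, 3 had a log2 fold change above 0 and none passed the thresholds. Actin (ACTA1) was lower in S-H, with a log2 fold change of -0.97, though the groups overlapped. Nebulin (NEB) was at -0.39, with all S-H pigs below all S-L pigs, a separation found in 2.06% of all tested genes. Of 4 heart markers 2 were found. NPPB was listed at 0 in all pigs, and TNNI3 reached at most 0.539 FPKM in any pig.

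Markers of adipocytes differed between the groups. The 7 adipocyte markers found summed to between 405 and 1103 FPKM in S-H and between 190 and 323 FPKM in S-L, and 5 of them passed the thresholds with higher values in S-H. The 5 fast fibre markers found summed to between 11670 and 17711 FPKM in S-H and between 13606 and 29837 FPKM in S-L, which overlapped. Of these 5, 0 had a log2 fold change above 0 (median -0.53), and LW90 was the highest pig in all 5. The 7 slow fibre markers summed to between 9180 and 10837 FPKM in S-H and between 6159 and 9547 FPKM in S-L. These sums overlapped too, while TNNC1, TNNI1 and TNNT1 (42.9%, against 11.9% of all tested genes) had all S-H pigs above all S-L pigs. All 7 slow fibre markers had a log2 fold change above 0 (median 0.43), against 70.6% of all tested genes. Their part in the values of the chaperones was not tested. In bulk muscle, fewer cells of a type and less RNA per cell cannot be told apart.

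Among the 56 members, 55 had a mean of at least 1 FPKM, 33 of at least 10 FPKM and 7 of at least 100 FPKM. In order of mean FPKM these 7 were HSPB8 (993.6), HSPA8 (715.3), HSPB1 (472.7), HSPE1 (283.3), HSP90AA1 (179.4), DNAJB4 (170.3) and HSP90AB1 (142.6). The first 3 made up 55.9% of the summed mean FPKM of the family, and the first 10 made up 81.3%. HSPB8 was 50th among all genes of the table by mean FPKM. The ranges of neighbours in this order overlapped over the pigs, as HSPB8 ranged from 444.7 to 1852 FPKM and HSPA8 from 450.9 to 1170 FPKM. FPKM is a level per length of transcript, so these levels may be compared between genes.

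**Figure D1:**
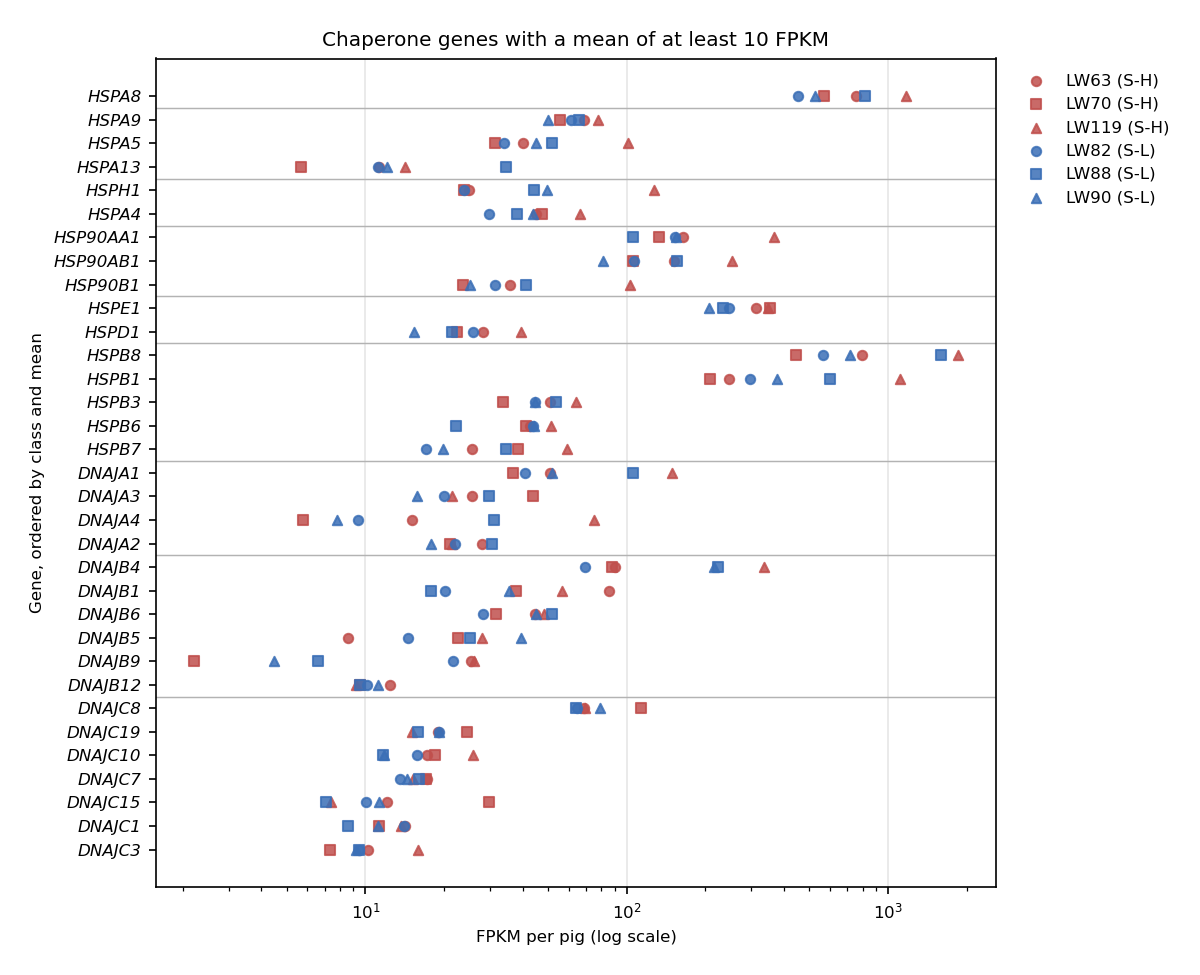
FPKM of the 33 members with a mean of at least 10 FPKM in each pig, on a log scale, with 1 row per gene, grouped by class in order of mean, red for S-H pigs and blue for S-L pigs. LW119 lies at the right end for the HSP90 genes, HSPH1, HSPB1 and HSPB8, while for HSPE1 the 3 S-H pigs (311.8 to 353.5 FPKM) lie above the 3 S-L pigs (207.0 to 246.0 FPKM).

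The cytosolic HSP70 class held 3 members, HSPA8, HSPA6 and HSPA1L. HSPA8 is the constitutive HSP70 of the cytosol and lies on chromosome 9 from 49982284 to 49990508 (Sscrofa11.1, as are all positions here). Its level was 755.7 FPKM in LW63, 571.3 in LW70 and 1170 in LW119, against 450.9 in LW82, 820.6 in LW88 and 524.0 in LW90. The groups overlapped because LW88 lay above LW63 and LW70. The log2 fold change was 0.46 with a standard error (SE) of 0.35 (limma, adjusted p = 0.748).

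HSPA6, a strictly inducible HSP70 in humans, showed the largest log2 fold change of the family, 1.56 with an SE of 0.73 (limma, adjusted p = 0.666). It lies on chromosome 4 from 88970591 to 88985586. Its level was 13.9 FPKM in LW63, 3.25 in LW70 and 22.5 in LW119, against 1.68 in LW82, 2.75 in LW88 and 8.08 in LW90. LW63 and LW119 stood above all S-L pigs, while LW70 stood below LW90. Leaving out LW70 moved the log2 fold change to 2.36 with an adjusted p of 0.554 in limma, past the thresholds, and leaving out LW119 moved it to 0.99. Over all its settings the adjusted p lay between 0.489 and 0.9999. The highest pig was 13.4 times the lowest, the widest range of the 56 members.

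HSPA1L, expressed mainly in testis, was at 0.628 FPKM or below in every pig, with a log2 fold change of 0.25. It is the lowest of the tested members, with a mean of 0.360 FPKM. A further cytosolic HSP70 gene, which carries no symbol in the table and is named HSP70.2 by its Ensembl identifier in the reference table, is no member by symbol. Like all transcripts without a symbol it was taken to be listed in TPM and was put on the FPKM scale. It lies on chromosome 7 from 23914603 to 23928196, overlapping the HSPA1L gene. It measured 104.1 FPKM in LW63, 39.4 in LW70 and 125.0 in LW119, against 16.6 in LW82, 39.8 in LW88 and 91.9 in LW90. The order of the pigs was close to that of HSPA6, with LW119 and LW63 highest, LW90 next and LW82 lowest. Its log2 fold change was 1.02 with an SE of 0.62 (limma, adjusted p = 0.706). HSP70 genes are near-identical over parts of their coding sequence, so reads could be shared among HSPA8, HSPA6, HSPA1L and HSP70.2, and the sources used here do not say how such reads or the strand were counted.

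HSPA5 (BiP), HSPA9 (mortalin) and HSPA13 make up the HSP70 proteins of the ER and the mitochondrion. HSPA9, which pulls proteins into the mitochondrial matrix, was the steadiest of these, with 67.2 ± 11.0 FPKM among S-H pigs and 58.9 ± 8.18 FPKM among S-L pigs (SD, n = 3 each). Its log2 fold change of 0.19 (SE 0.23) was close to the median of all genes and turned to -0.02 with median-ratio size factors. HSPA5, the main HSP70 of the ER, measured 40.1 FPKM in LW63, 31.5 in LW70 and 101.5 in LW119, against 34.0 in LW82, 51.9 in LW88 and 45.0 in LW90. The S-H group held both the lowest and the highest pig, and the log2 fold change of 0.23 (SE 0.41) turned to -0.27 without LW119. HSPA13, a microsomal HSP70, measured 11.3 FPKM in LW63, 5.67 in LW70 and 14.2 in LW119, against 11.2 in LW82, 34.4 in LW88 and 12.1 in LW90. It gave the most negative log2 fold change of the family, -0.78 with an SE of 0.48 (limma, adjusted p = 0.709), which was -0.26 without LW88. LW88 alone was 2.42 times the next pig, and the other 5 pigs lay between 5.67 and 14.2 FPKM.

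The relatives of HSP70 comprised HSPA4 and HSPH1, exchange factors that free HSP70 of its nucleotide, HSPA14, which works at the ribosome, and the divergent HSPA12A and HSPA12B. HSPA4 (chromosome 2, 135305749 to 135394185) measured 45.0 FPKM in LW63, 47.5 in LW70 and 66.1 in LW119, against 29.7 in LW82, 38.0 in LW88 and 44.0 in LW90. The 3 S-H pigs all exceeded the 3 S-L pigs, with LW63 at 45.0 FPKM just above LW90 at 44.0 FPKM. The log2 fold change was 0.50 with an SE of 0.25 (limma, adjusted p = 0.673). HSPH1, also known as HSP105, gave 24.9 FPKM in LW63, 23.8 in LW70 and 126.7 in LW119, against 23.9 in LW82, 44.3 in LW88 and 49.6 in LW90. LW119 was 2.55 times the next pig, and the log2 fold change of 0.17 (SE 0.60) became -0.62 without LW119 and -0.03 with median-ratio size factors.

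HSPA12A, a form expressed in brain, measured 3.72 FPKM in LW63, 2.08 in LW70 and 1.51 in LW119, against 1.98 in LW82, 1.34 in LW88 and 0.706 in LW90. Its log2 fold change was 0.83 with an SE of 0.44 (limma, adjusted p = 0.678), and its 2 highest pigs were LW63 and LW70. These were also the highest in the summed adipocyte markers, at 1103 and 644 FPKM, and the part of adipocytes in HSPA12A was not tested. HSPA12B, an endothelial member, measured 3.62 ± 0.305 FPKM among S-H pigs and 2.74 ± 0.553 FPKM among S-L pigs (SD, n = 3 each), with a log2 fold change of 0.41. Its values came to 97.8% from transcripts assembled from the reads, not from its Ensembl models. HSPA14 had nearly equal means, with 7.75 ± 2.92 FPKM among S-H pigs and 8.04 ± 3.19 FPKM among S-L pigs (SD, n = 3 each).

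The HSP90 class holds the cytosolic HSP90AA1 and HSP90AB1 and the ER protein HSP90B1 (GRP94). HSP90AA1, the inducible form, measured 164.3 FPKM in LW63, 132.7 in LW70 and 366.6 in LW119, against 152.5 in LW82, 105.8 in LW88 and 154.6 in LW90. HSP90AB1, the constitutive form, measured 151.4 FPKM in LW63, 106.1 in LW70 and 253.7 in LW119, against 106.8 in LW82, 156.2 in LW88 and 81.5 in LW90. HSP90B1 measured 35.9 FPKM in LW63, 23.7 in LW70 and 102.6 in LW119, against 31.3 in LW82, 41.2 in LW88 and 25.1 in LW90. In all 3 genes LW119 was the highest pig, and the other 5 pigs overlapped between the groups. The log2 fold changes were alike, 0.56 (SE 0.38), 0.53 (SE 0.37) and 0.48 (SE 0.48) in that order, and none passed in limma (adjusted p = 0.728, 0.731 and 0.812). Without LW119 the median of the class fell from 0.53 to 0.12, which is 0.03 below the median of all genes in that setting. HSP90AA1 lies on the unplaced scaffold AEMK02000452.1 of the assembly.

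The transcript models of HSP90 were assigned in an all-or-none way that did not follow the groups. HSP90B1-202 carried the whole value of the gene in LW63, LW70, LW119 and LW90 and was at 0 in LW82 and LW88, where HSP90B1-201 carried it. Both models span the same positions on chromosome 5, from 80511507 to 80531005. HSP90AA1-203 carried 156.7 FPKM in LW63, 360.8 in LW119 and 148.8 in LW82 and was at 0 in LW70, LW88 and LW90, where HSP90AA1-201 and HSP90AA1-202 shared the value. The sum over transcripts was used for the genes, and a comparison of single models of these genes mirrors which model each library was assigned to.

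**Figure D2:**
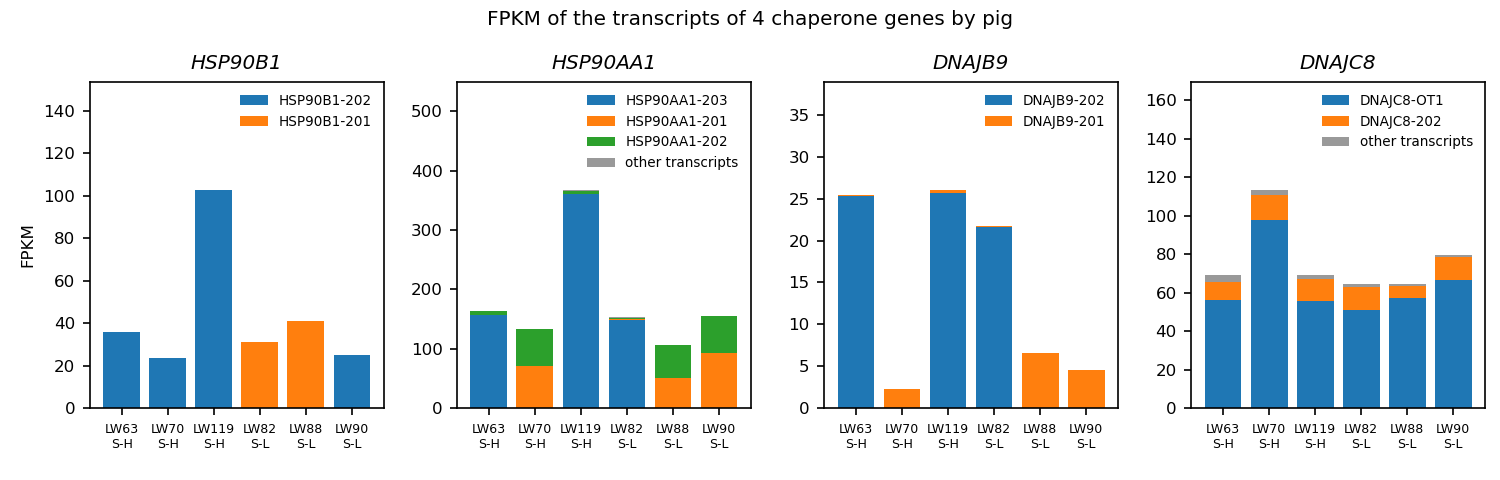
Stacked FPKM of the transcript models of HSP90B1, HSP90AA1, DNAJB9 and DNAJC8 in each pig (y axis, FPKM, linear, each panel with its own scale). The model that carries HSP90B1, HSP90AA1 and DNAJB9 switched between pigs of the same group, and in DNAJC8 the assembled transcript DNAJC8-OT1 made up 83.7% of the gene.

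The mitochondrial chaperonin had higher sums in every S-H pig than in any S-L pig, and most of each sum was HSPE1. HSPE1, the lid of the chamber (HSP10, ENSSSCG00000016078), measured 311.8 FPKM in LW63, 353.5 in LW70 and 348.0 in LW119, against 246.0 in LW82, 233.6 in LW88 and 207.0 in LW90. The groups did not overlap, and the pigs of each group lay close together. The means were 338 ± 22.6 FPKM (SD, n = 3) and 229 ± 19.9 FPKM (SD, n = 3), and the log2 fold change was 0.56 with an SE of 0.22 (limma p = 0.0329, adjusted p = 0.660), beside an exact two-sided permutation p of 0.10 over the 6 pigs, the lowest value possible with 3 pigs in each group. After median-ratio size factors the groups still did not overlap, but the log2 fold change was 0.36 with an adjusted p of 0.834 in limma, where its settings spanned 0.477 to 0.9999. Leaving out 1 pig at a time gave log2 fold changes between 0.49 and 0.62.

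HSPD1, the barrel of the chamber (HSP60), is the neighbour of HSPE1 on chromosome 15, where HSPD1 ends at 101373527 and HSPE1 starts at 101373788. It measured 28.1 FPKM in LW63, 22.4 in LW70 and 39.3 in LW119, against 25.8 in LW82, 21.5 in LW88 and 15.4 in LW90. The groups overlapped because LW70 lay below LW82. The log2 fold change of 0.51 (SE 0.29, limma, adjusted p = 0.689) was close to that of HSPE1. The summed FPKM of the class was 368 ± 24.7 among S-H pigs and 249.8 ± 25.1 among S-L pigs (SD, n = 3 each). The sums did not overlap, also after the size factors (301 to 393 against 263 to 272). HSPE1, with a mean of 283.3 FPKM against 25.4 FPKM for HSPD1, made up most of this sum, so its separation repeats that of HSPE1. The median log2 fold change of the class was 0.26 above that of all genes without LW119. Of 8 other mitochondrial chaperones and proteases tested, among them CLPX, TRAP1 and SPG7, none had a p below 0.05, 1 (CLPP, 12.5%) had all S-H pigs above all S-L pigs, against 11.9% of all tested genes, and their median log2 fold change was 0.32, against 0.19 for all genes.

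**Figure D3:**
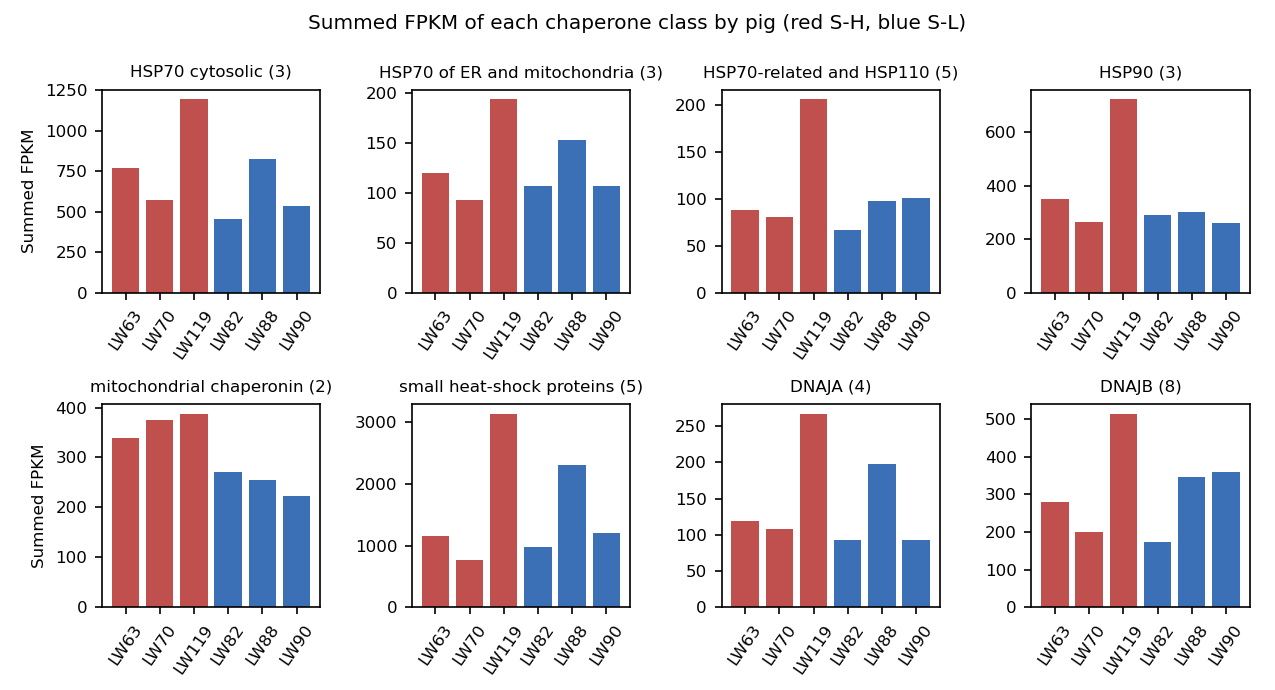
Summed FPKM of the tested members of 8 chaperone classes in each pig (bars from 0, each panel with its own scale, red S-H, blue S-L). LW119 is the highest pig in all 8 panels, and of these 8 the mitochondrial chaperonin is the class whose 3 S-H pigs (340.0 to 387 FPKM) all lie above its 3 S-L pigs (222 to 272 FPKM). Most of that sum is HSPE1, and HSPD1 alone overlaps between the groups.

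Small heat-shock proteins had the highest summed FPKM of the classes, and no member passed the test. HSPB8, which works with BAG3 in clearing damaged filament proteins, measured 793.3 FPKM in LW63, 444.7 in LW70 and 1852 in LW119, against 566.7 in LW82, 1591 in LW88 and 714.1 in LW90. HSPB1 (HSP27) measured 246.5 FPKM in LW63, 208.8 in LW70 and 1109 in LW119, against 296.7 in LW82, 600.8 in LW88 and 374.8 in LW90. In both genes LW119 and LW88, pigs of different groups, were the highest and LW70 was the lowest. The log2 fold changes were 0.01 (SE 0.55) for HSPB8 and -0.08 (SE 0.59) for HSPB1, with an adjusted p of 0.998 and 0.979 in limma. Both changed sign with single pigs: without LW119 they were -0.54 and -0.84, and without LW70 they were 0.49 and 0.37. With median-ratio size factors HSPB8 was at -0.20, and with TPM HSPB1 was at 0.06.

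HSPB7, a muscle protein of the filaments, measured 25.5 FPKM in LW63, 38.5 in LW70 and 59.3 in LW119, against 17.1 in LW82, 34.5 in LW88 and 19.8 in LW90. It had the largest log2 fold change of the class, 0.77 with an SE of 0.37 (limma, adjusted p = 0.666), and the groups overlapped only through LW88. HSPB3, another muscle form, was steady at 33.5 to 64.2 FPKM, with a log2 fold change of 0.02 that turned to -0.19 with median-ratio size factors. HSPB6 (HSP20) lay between 41.0 and 51.4 FPKM in 5 pigs, and LW88 was lower at 22.2 FPKM. HSPB9, a testis form, was listed at 0 in all pigs. CRYAB, a small heat-shock protein whose symbol is outside the rule, had a higher mean FPKM than any member. It measured 1474 FPKM in LW63, 943.4 in LW70 and 3554 in LW119, against 793.4 in LW82, 2136 in LW88 and 922.2 in LW90, with LW119 and LW88 again highest. Its log2 fold change was 0.55 (SE 0.54). The symbols HSPBP1 and HSPBAP1 belong to binding partners, an exchange factor of HSP70 and a protein that binds HSPB1, with means of 3.39 and 3.56 FPKM and log2 fold changes of 0.31 and -0.33.

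J-domain proteins of type A, which resemble the bacterial DnaJ throughout, differed in how much the pigs varied. DNAJA4 measured 15.0 FPKM in LW63, 5.78 in LW70 and 75.2 in LW119, against 9.40 in LW82, 31.2 in LW88 and 7.80 in LW90. DNAJA1, the main partner of HSPA8, measured 50.7 FPKM in LW63, 36.8 in LW70 and 148.9 in LW119, against 41.0 in LW82, 106.1 in LW88 and 51.7 in LW90. LW119 and LW88 were the highest pigs in both, as in HSPB1 and HSPB8, and the highest pig was 13.0 times the lowest in DNAJA4 and 4.04 times in DNAJA1. Their log2 fold changes of 0.50 (SE 0.85) and 0.10 (SE 0.53) became -0.50 and -0.49 without LW119, and DNAJA1 was at -0.10 with median-ratio size factors. DNAJA2, a cytosolic form, was even, with 23.5 ± 3.85 FPKM among S-H pigs and 23.4 ± 6.43 FPKM among S-L pigs (SD, n = 3 each). DNAJA3, the mitochondrial form, was highest in LW70 at 44.0 FPKM and between 15.8 and 29.7 FPKM in the other 5 pigs, with a log2 fold change of 0.45 (SE 0.34) that was 0.15 without LW70.

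DNAJB1 (HSP40, ENSSSCG00000013784), the inducible partner of HSP70, lies on chromosome 2 from 64750820 to 64765485 and was the member that passed the thresholds. It measured 85.8 FPKM in LW63, 37.8 in LW70 and 56.5 in LW119, against 20.1 in LW82, 17.9 in LW88 and 35.3 in LW90. The 3 S-H pigs all exceeded the 3 S-L pigs, with LW70 just above LW90. The means were 60.0 ± 24.2 FPKM among S-H pigs and 24.4 ± 9.49 FPKM among S-L pigs (SD, n = 3 each). The log2 fold change was 1.28 with an SE of 0.36, a fold of 2.43 on the scale of FPKM + 0.1 (limma p = 0.00634, adjusted p = 0.644), beside an exact two-sided permutation p of 0.10, the smallest possible here. Relative to the median of all genes the log2 fold change was 1.09.

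The direction of DNAJB1 held in all 19 other settings, with log2 fold changes from 0.98 to 1.58, and it kept its call in 9 of them. With median-ratio size factors the log2 fold change was 1.07 (adjusted p = 0.765 in limma) and the groups overlapped. The settings that lost the call included those with LW63, LW119, LW82 or LW88 left out. Over all settings the adjusted p in limma lay between 0.477 and 0.971. The model DNAJB1-201, with 74.7% of the gene, measured 65.1 FPKM in LW63, 26.6 in LW70 and 45.5 in LW119, against 12.9 in LW82, 13.9 in LW88 and 25.4 in LW90. Its log2 fold change was 1.37, beside 1.31 for DNAJB1-202, 1.02 for DNAJB1-OT1 and 0.14 for the assembled TCONS_00145383. None of these transcripts passed the thresholds alone. The pigs of DNAJB1 did not follow those of the small heat-shock proteins: LW88, second highest for HSPB1 and HSPB8, was lowest for DNAJB1.

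DNAJB4, whose loss causes a myopathy in humans, had the highest mean FPKM of type B. It measured 90.4 FPKM in LW63, 88.0 in LW70 and 335.4 in LW119, against 69.0 in LW82, 223.4 in LW88 and 215.5 in LW90. LW119, LW88 and LW90 were above the other 3 pigs, and the log2 fold change was -0.11 (SE 0.60), which was 0.03 with TPM and 0.22 without LW70. DNAJB5 measured 8.56 FPKM in LW63, 22.6 in LW70 and 27.9 in LW119, against 14.6 in LW82, 25.1 in LW88 and 39.6 in LW90, with a log2 fold change of -0.47 (SE 0.49) that was 0.04 without LW63. DNAJB6, whose mutations cause a muscular dystrophy in humans, had nearly equal means, with 41.6 ± 8.76 FPKM among S-H pigs and 41.7 ± 12.1 FPKM among S-L pigs (SD, n = 3 each). DNAJB12, an ER membrane J-protein, was as even, at 10.4 ± 1.73 and 10.3 ± 0.800 FPKM (SD, n = 3 each).

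DNAJB9, an ER J-protein that holds back the stress sensor IRE1, measured 25.5 FPKM in LW63, 2.21 in LW70 and 26.0 in LW119, against 21.7 in LW82, 6.56 in LW88 and 4.48 in LW90. The pigs fell into a high and a low set that cut across the groups. In the 3 high pigs the short model DNAJB9-202 carried 25.3, 25.7 and 21.7 FPKM, and in the 3 low pigs it was at 0 and the longer DNAJB9-201 carried the whole value. These are the same 3 pigs in which HSP90AA1-203 was above 0. The level of DNAJB9 thus moved together with the model that carried it, and the part of the model assignment in the 11.7-fold range was not tested. The log2 fold change was 0.40 with an SE of 0.92. DNAJB8 and DNAJB13 had means of 0.00403 and 0.0747 FPKM and were not tested.

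DNAJC proteins share only the J domain and serve special tasks. This was the largest class, with 24 members, of which 21 were tested. The summed FPKM was 233 ± 31.1 among S-H pigs and 194 ± 4.89 among S-L pigs (SD, n = 3 each), with no overlap, and LW70, not LW119, was the highest pig at 269 FPKM. These sums include the assembled transcript DNAJC8-OT1 of DNAJC8, at 97.6 FPKM in LW70 and 51.1 to 66.5 FPKM in the other pigs. Divided by the median-ratio size factors the sums overlapped, at 189 in LW63, 281 in LW70 and 187 in LW119, against 193 in LW82, 197 in LW88 and 236 in LW90. The class median log2 fold change of 0.23 lay 0.04 above that of all genes, and 0.10 above it without LW119.

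DNAJC10 (ERdj5), a disulfide reductase of the ER, measured 17.2 FPKM in LW63, 18.4 in LW70 and 25.9 in LW119, against 15.7 in LW82, 11.7 in LW88 and 11.7 in LW90. The 3 S-H pigs all exceeded the 3 S-L pigs. The log2 fold change was 0.64 with an SE of 0.25 (limma p = 0.0332, adjusted p = 0.660), beside an exact permutation p of 0.10. With median-ratio size factors it was 0.44 (limma, adjusted p = 0.796), where the groups overlapped. Over its settings the adjusted p of DNAJC10 lay between 0.480 and 0.9999. DNAJC6 (auxilin), which strips clathrin from vesicles, measured 1.41 FPKM in LW63, 1.58 in LW70 and 0.923 in LW119, against 0.757 in LW82, 0.640 in LW88 and 0.908 in LW90. Its groups did not overlap either, with LW119 just above LW90, and its log2 fold change was 0.67 (SE 0.33, limma, adjusted p = 0.666), which was -0.26 for its most abundant transcript alone. DNAJC5, the cysteine string protein of secretory vesicles, measured 4.31 ± 0.798 FPKM among S-H pigs and 3.09 ± 0.282 FPKM among S-L pigs (SD, n = 3 each) without overlap, with a log2 fold change of 0.45 (SE 0.26).

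DNAJC15, a J-protein of the mitochondrial inner membrane, was set apart by LW70. It measured 12.1 FPKM in LW63, 29.7 in LW70 and 7.39 in LW119, against 10.1 in LW82, 7.09 in LW88 and 11.3 in LW90, and its log2 fold change was 0.57 (SE 0.46), which was 0.02 without LW70. DNAJC2, a ribosome-bound J-protein, was set apart by LW88. It measured 2.89 FPKM in LW63, 1.92 in LW70 and 2.91 in LW119, against 3.40 in LW82, 8.16 in LW88 and 2.54 in LW90, and its log2 fold change of -0.69 (SE 0.42) was -0.21 without LW88 and 0.44 for its most abundant transcript. In LW88 the model DNAJC2-201 carried 6.31 FPKM, while it was at most 0.0905 FPKM in the other 5 pigs.

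DNAJC8, a nuclear protein of splicing, was the DNAJC gene with the highest FPKM, but most of that value came from 1 assembled transcript. It measured 68.9 FPKM in LW63, 113.1 in LW70 and 69.0 in LW119, against 64.3 in LW82, 64.2 in LW88 and 79.3 in LW90. The assembled transcript DNAJC8-OT1 made up 83.7% of this and lies on chromosome 6 from 85307201 to 85309223. The gene ATP5IF1, an inhibitor of the mitochondrial ATP synthase, has a transcript from 85307189 to 85309215, which measured between 395.0 and 701.9 FPKM. Without DNAJC8-OT1, DNAJC8 measured 13.8 ± 1.43 FPKM among S-H pigs and 11.0 ± 3.43 FPKM among S-L pigs (SD, n = 3 each). DNAJC19 likewise drew 67.7% of its value from an assembled transcript. DNAJC5B was listed at 0 in every pig, and DNAJC22 and DNAJC5G, with means of 0.00555 and 0.0695 FPKM, were not tested. DNAJC4 has no symbol in the table and is no member. Its values were taken to be in TPM and were put on the FPKM scale. It measured 12.5 ± 1.44 FPKM among S-H pigs and 7.94 ± 1.04 FPKM among S-L pigs (SD, n = 3 each) without overlap. Its log2 fold change was 0.65 (SE 0.23, limma, adjusted p = 0.649).

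**Figure D4:**
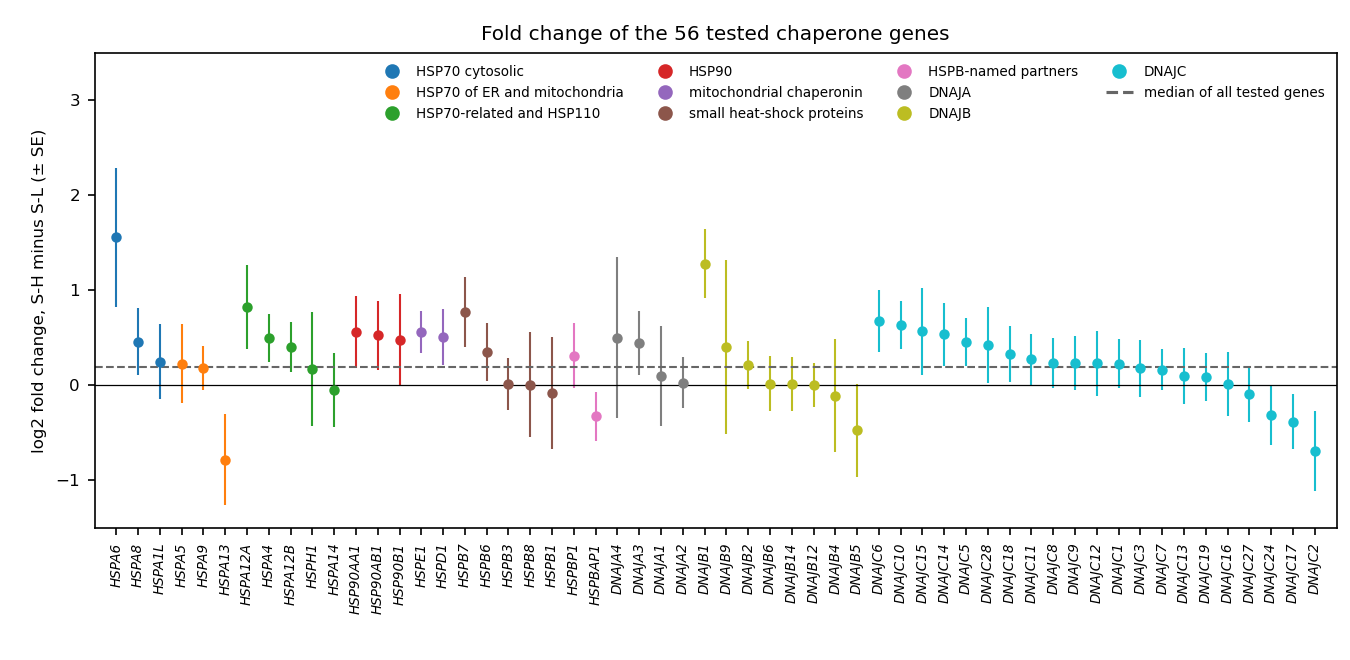
Log2 fold change of FPKM + 0.1, S-H minus S-L, of the 56 tested members (points) with the SE from limma (bars), coloured by class and sorted within each class. The dashed line is the median of all tested genes at 0.19, and DNAJB1 (1.28) and HSPA6 (1.56) are the highest points, HSPA13 (-0.78) and DNAJC2 (-0.69) the lowest.

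Over the whole family, 6 members had all S-H pigs above all S-L pigs, namely HSPA4, HSPE1, DNAJB1, DNAJC10, DNAJC5 and DNAJC6. That is 10.7% of the members, against a background of 11.9% of all tested genes. The opposite separation was found in 0 members (background 2.06%). With median-ratio size factors, 2 members had all S-H pigs above all S-L pigs (background 5.99%), HSPE1, which is 1 of those 6, and HSPA12B, which is not. At that setting 4 members, DNAJC2, DNAJC17, DNAJC27 and HSPBAP1, had all S-H pigs below all S-L pigs (background 6.17%). A log2 fold change above 0 was measured for 46 members (82.1%), against 70.6% of all tested genes, and 32 members lay above the median of all genes and 24 below it.

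The abundant members spread more widely over the pigs than all tested genes above the same floor did. The sets share a floor of 10 FPKM and were not matched in level above it. Among the 33 members averaging 10 FPKM or more, the highest pig was more than 3 times the lowest in 16 (48.5%), against 15.3% of the 3375 genes at that level. Over all 56 members this share was 33.9%, against 35.3% of all tested genes. In 7 of the 55 members averaging 1 FPKM or more (12.7%) the highest pig had more than 2 times the value of the next, against 3.2% of the 11095 genes at that level. LW119 was this pig for HSPH1, HSP90AA1, HSP90B1 and DNAJA4, LW88 for HSPA13 and DNAJC2, and LW70 for DNAJC15.

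LW119 and LW88, from opposite groups, were the 2 highest pigs in 14 members (25%), against 10% of all tested genes. After median-ratio size factors they were so in 12 members (21.4%), against 8.62%. This pair was picked after the values of the members were seen, so these counts describe it and test nothing. After these size factors LW119 held the highest value of 18 members (32.1%, against 17.7% of all genes) and LW88 of 16 members (28.6%, against 16.7%). The summed FPKM of the family was 3446 in LW63, 2737 in LW70 and 6843 in LW119, against 2629 in LW82, 4674 in LW88 and 3074 in LW90. The group sums were 4342 ± 2194 (SD, n = 3) and 3459 ± 1075 (SD, n = 3) and overlapped. Leaving out LW119 moved the class medians by differing amounts: relative to all genes the small heat-shock proteins went from -0.18 to -0.35, type A from 0.08 to -0.36, type B from -0.18 to -0.24, HSP90 from 0.33 to -0.03 and the chaperonin from 0.34 to 0.26.

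**Figure D5:**
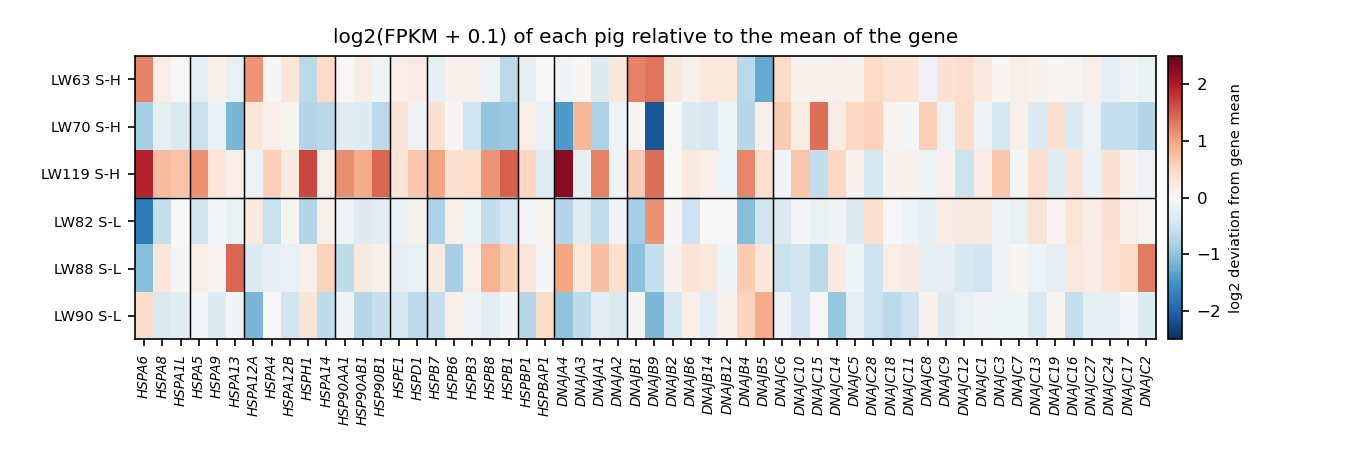
Log2(FPKM + 0.1) of each pig (6 rows, S-H above the line) minus the mean of the gene over the 6 pigs, for the 56 tested members in the order of the fold change plot, in red above and blue below the mean. The row of LW119 is red through the HSP90 and small heat-shock genes and for DNAJA1 and DNAJA4. That of LW88 is red for many of the same genes but not for HSPB6, of which it is the lowest pig, HSPA6, DNAJB1 or HSP90AA1. The DNAJC genes on the right are mostly pale apart from DNAJC15 in LW70 and DNAJC2 in LW88.

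Of 147 tested transcripts of members, among 213 in the table, 1 passed the thresholds (0.680%, against a background of 1.25% of 40336 tested transcripts) and 0 had an adjusted p below 0.05 in limma (background 0.0843%), while 6 had an unadjusted p below 0.05 (4.08%, background 5.57%). The 1 transcript was the assembled TCONS_00131766 of HSPA12B, which measured 0.796 FPKM in LW63, 0.652 in LW70 and 0.740 in LW119, against 0 in LW82, 0.152 in LW88 and 0.169 in LW90 (limma, adjusted p = 0.694). It extends on chromosome 17 from 31943060 to 31958840, beyond the Ensembl gene, whose first position is 31953129. HSPE1-201, the main model of HSPE1 with 58.3% of the gene, had no overlap between the groups, at 179 to 221 FPKM in S-H and 122 to 144 FPKM in S-L.

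Partners of the chaperones were taken from lists of known cofactors. Their counts are to be read against all tested genes, of which 7.45% had a p below 0.05 and 11.9% had all S-H pigs above all S-L pigs, while LW119 was highest in 29.4% and the median log2 fold change was 0.19. Of 20 HSP90 co-chaperones tested, none passed the thresholds, 4 (20%) had a p below 0.05 (STIP1, CDC37, FKBP4 and TOMM34), and 6 (30%) had all S-H pigs above all S-L pigs. Their median log2 fold change was 0.35. STIP1 (HOP), which links HSP70 to HSP90, measured 93.6 FPKM in LW63, 89.6 in LW70 and 149 in LW119, against 59.3 in LW82, 80.5 in LW88 and 41.5 in LW90, with a log2 fold change of 0.89 (SE 0.31, limma, adjusted p = 0.649). Of 13 HSP70 co-chaperones, 1 (BAG6, 7.69%) had a p below 0.05, and BAG3, the partner of HSPB8, had a log2 fold change of -0.59 (SE 0.47). Of 13 tested subunits of the cytosolic chaperonin CCT and prefoldin, 1 (CCT7, 7.69%) had a p below 0.05. LW119 was the highest pig in 10 of these 13 (76.9%), and in 4 (30.8%) with median-ratio size factors, where the share of all genes was 17.7%. Among 22 genes of ER folding and the unfolded protein response, ERP29, CRELD2 and XBP1 (13.6%) had a p below 0.05 and 5 (22.7%) had all S-H pigs above all S-L pigs. LW119 was the highest pig in 16 of the 22 (72.7%), and in 13 (59.1%) with the size factors.

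Among 7 tested heat shock factors and their regulators, none had a p below 0.05 and the median log2 fold change of 0.07 lay below the 0.19 of all genes. HSF1 measured 2.65 FPKM in LW63, 3.28 in LW70 and 4.69 in LW119, against 3.23 in LW82, 3.26 in LW88 and 3.32 in LW90, so LW119 was highest and LW88 was level with its group. HSF2 was lower in LW63 and LW70, at 7.37 and 6.32 FPKM, than in the other 4 pigs, at 12.6 to 18.4 FPKM. Of 19 immediate early genes, which respond within minutes to stress and handling, 1 passed the thresholds (background 1.25% of all tested genes). It was NR4A3, lower in S-H (log2 fold change -1.87, SE 0.35, limma, adjusted p = 0.313). A p below 0.05 was reached by 2 of the 19 (10.5%, background 7.45%), NR4A3 and JUN. JUN was higher in S-H (log2 fold change 0.61, SE 0.25, limma, adjusted p = 0.660). All S-H pigs lay above all S-L pigs for JUN and below them for NR4A3. LW119 was the highest pig in 8 of the 19 (42.1%, against 29.4% of all tested genes) and LW88 in 0 (against 11.3%). The highest sum of the immune markers (39.4 FPKM) was also that of LW119, against 10.8 to 25.7 FPKM in the other 5 pigs, while the fibroblast markers summed to 630 FPKM in LW119, 608 FPKM in LW63 and 305 to 515 FPKM in the other 4 pigs. The part of these cells in the levels of LW119 was not tested.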

How the data were processed

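By the study's methods, reads went through HISAT2 against the Sus scrofa 11.1 assembly, and StringTie built and quantified the transcripts (versions not given in the sources used here). The deposited values are FPKM for each transcript and pig, computed by the authors. The 21104 Ensembl transcripts without a symbol were taken to be in TPM and were put on the FPKM scale with 1 factor per pig. This unit was inferred from the values and not tested. The library sums, the values over all tested genes, HSP70.2 and DNAJC4 rest on it. All transcripts of members are in FPKM as deposited. Strand use in counting is not given in the sources used here.

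Gene values were summed over 83119 transcripts of the table by gene identifier. Genes with a mean of at least 0.1 FPKM entered limma 3.58.1 (R 4.3.3, variance trend) as log2(FPKM + 0.1), S-H minus S-L, as did transcripts, with Benjamini-Hochberg adjustment over all of them. The study's own count test could not be run on FPKM. Single genes were also compared by exact two-sided permutation over the 20 divisions of the pigs. The fit was tested on simulated data first. Summaries used Python 3.11.15 with pandas 2.3.3 and numpy 2.4.6.

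Members named by rule were those with p below 0.05 and those whose highest pig had more than 2 times the next. In each class the 3 of highest mean and those of largest positive and negative fold change were added. Some of these are given by a mean, a range or a percent and not in each pig. Others were named for a role or a level, and of these DNAJB9 is given in each pig. Genes of related lists were named by a p below 0.05 or as 1 of the 3 of highest mean. HSP70.2, DNAJC4, HSF1, BAG3, CLPP, TNNI1, TNNT1 and NEB fall outside this and were chosen after their values were seen. Members and lists were chosen with earlier results of these data known. Pseudocounts, minimums, scalings, variance options, gene sets, transcript sums and pigs left out were varied. Sequences of the members were not used here.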

Additional observations from a re-analysis of the deposited data

How the results depend on the processing

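No paired analysis was possible because S-H and S-L came from separate animals that no label pairs. The median log2 fold change of the members lay between -0.04 and 0.12 above that of all tested genes in every setting run. Members past the thresholds (1 in the report) numbered 0 with no minimum, median-ratio size factors, quantile normalization, no variance trend, adjusted p below 0.05 or without LW119 and LW88, a setting chosen after seeing the data, and 0 to 2 with 1 pig left out, the 2 being DNAJB1 and HSPA6 without LW70. Members with p below 0.05 (3) numbered 6 with TPM, 1 without a trend and 2 to 6 with 1 pig left out, the 6 without LW119. Members with all S-H pigs above (6) numbered 2 with either size factors or quantiles, 18 without LW119 and LW88 and 7 to 14 with 1 pig left out. Members with all S-H pigs below (0) numbered 4 with either size factors or quantiles, 1 with the transcript of highest mean, 5 without LW119 and LW88 and 0 to 3 with 1 pig left out. Transcripts past the thresholds (1) numbered 0 with a pseudocount of 1 or adjusted p, and 0 to 4 with 1 pig left out.

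Log2 fold changes of single members changed sign as follows, and the cause was not tested. With median-ratio size factors DNAJA1 was -0.10, DNAJA2 -0.17, DNAJB6 -0.19, DNAJC19 -0.12, HSPA9 -0.019, HSPB3 -0.19, HSPB8 -0.20 and HSPH1 -0.032, and with quantile normalization DNAJA1 was -0.039, DNAJA2 -0.13, DNAJB6 -0.12, DNAJC19 -0.080, HSPB3 -0.14 and HSPB8 -0.18. With TPM DNAJB4 was 0.028, HSPA14 0.085 and HSPB1 0.058. With Ensembl transcripts alone DNAJB6 was -0.0088 and DNAJC19 -0.020, and with the transcript of highest mean DNAJA2 was -0.0018, DNAJB6 -0.020, DNAJC2 0.44, DNAJC6 -0.26, HSPA14 0.0064 and HSPB8 -0.013. Without LW119 and LW88 DNAJA1 was -0.092, DNAJB9 -0.38, HSP90AA1 -0.057, HSPA14 0.14, HSPA1L -0.0099, HSPA5 -0.14, HSPB3 -0.11, HSPB6 -0.077, HSPB8 -0.10 and HSPH1 -0.50. With 1 pig left out the ranges that crossed 0 were -0.49 to 0.51 for DNAJA1, -0.15 to 0.24 for DNAJA2, -0.50 to 1.34 for DNAJA4, -0.74 to 0.22 for DNAJB4, -0.84 to 0.041 for DNAJB5, -0.24 to 0.20 for DNAJB6, -0.18 to 1.56 for DNAJB9, -0.091 to 0.26 for DNAJC19, -0.13 to 0.93 for HSP90B1, -0.38 to 0.28 for HSPA14, -0.046 to 0.49 for HSPA1L, -0.27 to 0.57 for HSPA5, -0.84 to 0.37 for HSPB1, -0.20 to 0.27 for HSPB3, -0.54 to 0.49 for HSPB8 and -0.62 to 0.59 for HSPH1. Without a pig, the 2 pigs left in its group were assumed to vary like the 3 of the other. FPKM without counts sets no limit for counting error.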
